A study of Mus musculus with 2 samples.

Results

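The 33 genes described here encode the enzymes that remove superoxide and peroxides, the glutathione and thioredoxin systems that reduce them again, and the NRF2 axis that controls many of them. They were taken by symbol from a list of names, and all 33 were found among the 43346 mouse gene identifiers of the tables. Total RNA was sequenced from livers of mouse embryos of the B6NCrl strain at E12.5 (embryonic day 12.5), untreated as far as the labels say and with both sexes mixed. Per the labels, RNA over 200 nucleotides was used for both libraries, with 10 ng as the starting amount. Replicate 1 was a pool of 120 embryos and replicate 2 a separate pool of 88 embryos, so the study has 1 group of 2 libraries and each value is an average over many livers. The libraries held 37.6 M and 34.7 M expected counts, which are the authors' estimated reads per gene. Levels are given in TPM (a gene's transcripts as a share of all transcripts, corrected for length and scaled to a fixed total), as the mean ± SD over both libraries (n = 2) or as the value of each library. With 1 group there is no contrast between conditions, so no p-value is given.

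Superoxide dismutases turn superoxide into hydrogen peroxide, and catalase, glutathione peroxidases and peroxiredoxins then reduce the peroxide. Peroxiredoxins are recharged by thioredoxin and glutathione peroxidases by glutathione, and the electrons for both come from NADPH, which the oxidative pentose phosphate pathway supplies. The fetal liver is the main site of red cell production at this age, and red cells are known for large amounts of peroxiredoxin 2, catalase and superoxide dismutase 1. Erythroid and hepatoblast markers were both abundant in these libraries. All 8 erythroid markers were at or above 100 TPM, led by Hbb-bs at 46192 and 48427 TPM, and all 8 hepatoblast markers were detected, led by Afp at 5312 and 5136 TPM. Macrophage, megakaryocyte, granulocyte, endothelial and mesenchymal markers were detected too, so a level in this tissue cannot be assigned to a cell type. In bulk RNA, fewer cells of a type and less RNA per cell cannot be told apart.

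Several of these enzymes use selenocysteine, which is inserted at a UGA codon that would otherwise stop translation. The GENCODE M21 annotation marks a selenocysteine in 6 of the 33 genes. The 8 codons before and, where the coding sequence reaches that far, the 8 codons after the codon in question are printed below from the M21 transcripts, with the TGA in capitals. They are shown with Gpx7 and Gpx8, which have a cysteine codon at the matching place.
Gpx1: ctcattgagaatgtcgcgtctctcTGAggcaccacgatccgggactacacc
Gpx4: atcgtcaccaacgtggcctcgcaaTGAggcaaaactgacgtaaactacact
Gpx3: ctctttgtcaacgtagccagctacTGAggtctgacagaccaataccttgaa
Gpx7: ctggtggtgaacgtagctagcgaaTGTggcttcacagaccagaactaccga
Gpx8: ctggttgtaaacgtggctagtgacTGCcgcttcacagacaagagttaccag
Txnrd1: ggagacatcctccagtctggctgcTGAggt
Txnrd2: ctggagcctactgtgactggttgcTGAggc
Txnrd3: ctggacattactcagaaaggctgcTGAggc

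In Gpx1 the TGA is codon 47 of 201 in transcript model Gpx1-201 and lies in exon 1 at chr9:108339451-108339453 (mm10, plus strand). In Gpx3 it is codon 73 of 226, in exon 2 at chr11:54907256-54907258, and in Gpx4-207 it is codon 33 of 157, in exon 2 at chr10:80054737-80054739. The thioredoxin reductases carry it at the end of the protein instead. It is codon 498 of 499 in Txnrd1-201, codon 526 of 527 in Txnrd2-203 and codon 614 of 615 in Txnrd3-201. The cysteine codons of Gpx7 and Gpx8 are codon 56 of 186 and codon 79 of 209, and both lie in exon 2.

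The thioredoxins and the glutaredoxins Glrx and Glrx2 work through a pair of cysteines that are separated by a pair of other residues. Both cysteine codons are in capitals in these windows of Txn1, Txn2, Glrx and Glrx2.
Txn1: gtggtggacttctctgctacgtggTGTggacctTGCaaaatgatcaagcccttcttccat
Txn2: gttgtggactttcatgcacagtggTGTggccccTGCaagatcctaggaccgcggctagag
Glrx: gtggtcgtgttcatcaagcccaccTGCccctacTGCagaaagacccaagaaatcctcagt
Glrx2: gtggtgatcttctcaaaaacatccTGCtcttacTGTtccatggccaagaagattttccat
A pair of TGC or TGT codons with that spacing anywhere in the coding sequence occurred in 5 of the 33 genes (15.2%), the other being Txnrd3, against 28.8% of 11650 detected coding genes. Glrx3, the remaining glutaredoxin of the 33, had no such pair.
Peroxiredoxins instead attack peroxide with a single cysteine, whose codon is in capitals below for the 5 peroxiredoxin genes that hold the pattern GTN, a cysteine codon, NNN, ACN and a glutamate codon.
Prdx1: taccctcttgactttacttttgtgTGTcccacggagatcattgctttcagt
Prdx2: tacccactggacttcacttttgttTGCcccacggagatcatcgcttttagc
Prdx3: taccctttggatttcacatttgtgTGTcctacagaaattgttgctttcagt
Prdx4: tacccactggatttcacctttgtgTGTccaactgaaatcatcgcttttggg
Prdx6: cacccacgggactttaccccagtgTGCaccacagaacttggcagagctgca
The capital codon is number 52 of 199 in Prdx1-204, 51 of 198 in Prdx2-208, 109 of 257 in Prdx3-201, 127 of 274 in Prdx4-201 and 47 of 224 in Prdx6-202. Prdx3 is known to carry a leader sequence for mitochondria and Prdx4 a signal sequence for secretion.

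All 33 genes were detected, which means at or above 1 TPM in both libraries, against 29.6% of all mouse gene identifiers. A total of 13 of the 33, or 39.4%, were at or above 100 TPM in both libraries, against 2.84% of all mouse identifiers. All 33 are annotated as protein-coding, but only 21474 of the 43346 identifiers are, so both background percentages include other gene types. The median of the 33 levels was 78.1 TPM, beside 12.7 TPM over the 12841 detected mouse genes, and 30 of the 33 lay above the latter. Expected counts ranged from 176 for the lowest gene in the lower library to 124535 for the highest. Together the 33 genes held 12284 TPM in replicate 1 and 12102 TPM in replicate 2, which is 1.22% ± 0.0129 of all TPM.

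**Figure D1:**
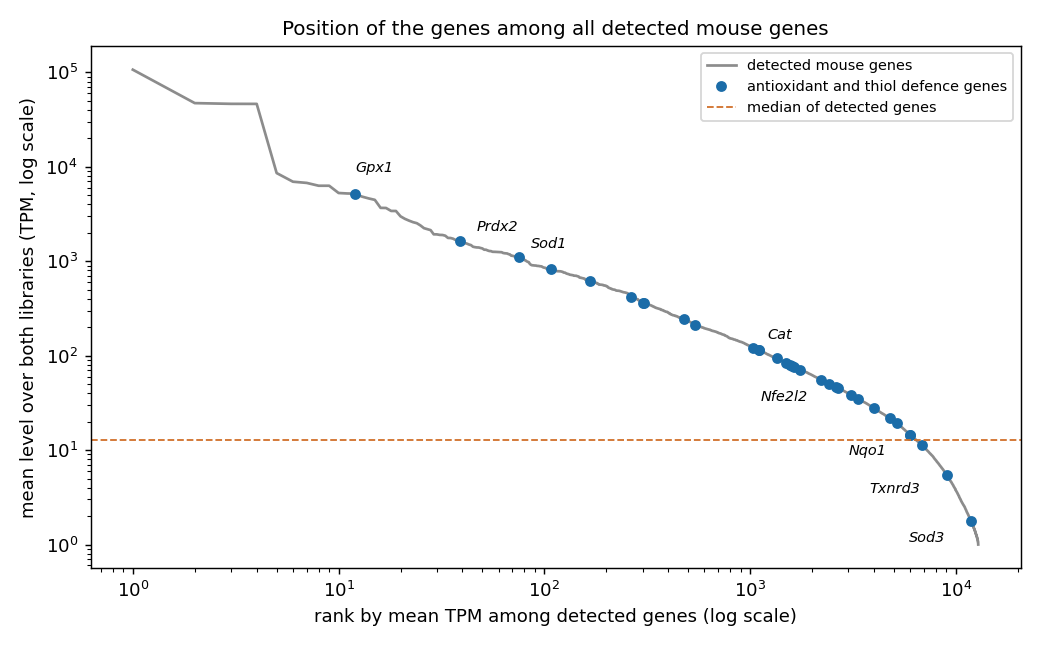
Mean level over both libraries (TPM, log scale) against rank by level (log scale) for all detected mouse genes (grey line), with the 33 antioxidant and thiol defence genes as blue points and the median of detected genes, 12.7 TPM, as a dashed line. Gpx1 is at rank 12, and Gpx7, Txnrd3 and Sod3 are the 3 genes below the median.

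The glutathione peroxidases held 48.1% ± 0.324 of the TPM of the 33 genes, nearly all of it from Gpx1. Gpx1, the cytosolic enzyme that reduces hydrogen peroxide with glutathione, had 5214 and 5184 TPM from 124535 and 114250 expected counts, and ranked 12th among mouse genes. It lies at chr9:108338903-108340343 and held 88.6% ± 0.0241 of its family's TPM. Gpx4, which reduces lipid peroxides in membranes, had 619 and 614 TPM, so that Gpx1 was 8.43 ± 0.00854 times as high. The other members were far lower. Gpx3, the secreted plasma form, had 26.9 and 28.5 TPM. Gpx8 and Gpx7, the forms of the endoplasmic reticulum, had 14.5 and 14.6 TPM and 10.7 and 11.8 TPM.

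Peroxiredoxins held 28.1% ± 0.437 of the TPM of the 33 genes, and 5 of the 6 were at or above 100 TPM. Prdx2, the abundant peroxiredoxin of red cells at chr8:84969587-84974834, had 1644 and 1607 TPM. Prdx1, its cytosolic relative, had 849.5 and 787.3 TPM. Prdx2 was therefore 1.99 ± 0.0746 times as high as Prdx1, and 3.09 times per kilobase of the longest transcript model of each gene, a scaling chosen after seeing the data. Prdx6, which has no second active cysteine and uses glutathione, had 439 and 403 TPM. Prdx3, the mitochondrial form, had 363 and 362 TPM. Prdx4, which acts in the endoplasmic reticulum, had 119 and 124 TPM. Prdx5 was the lowest of the family, with 78.1 and 83.1 TPM, and Prdx2 was 20.2 ± 1.22 times as high. The libraries kept the same order of all 6 in TPM. Per kilobase of the longest model, Prdx6 was 0.552 times as high as Prdx3, which turns the order of that pair. The longest model of Prdx6 is a retained-intron model that held 1.94% of the TPM of Prdx6.

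Among superoxide dismutases and catalase, Sod1 stood apart. Sod1, the cytosolic copper and zinc enzyme at chr16:90220754-90226329, had 1106 and 1105 TPM and held 87.1% ± 0.451 of the TPM of these 4 genes. Sod2, the mitochondrial manganese enzyme, had 47.0 and 46.9 TPM, and Sod1 was 23.5 ± 0.0238 times as high. Sod3, the extracellular enzyme, was the lowest of all 33 genes with 1.78 and 1.74 TPM. It rested on 176 or more expected counts in each library. Cat, which encodes the peroxisomal catalase, had 111 and 120 TPM, and was 2.46 ± 0.144 times as high as Sod2.

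Glutathione is made in 2 steps, of which the first is catalysed by an enzyme with a catalytic subunit (Gclc) and a modifier subunit (Gclm). Gclm had 361 and 366 TPM, and Gclc had 38.3 TPM in both libraries. The ratio of the subunits' TPM was 9.49 ± 0.0893. Gclm was 1 of the genes whose level depended most on how transcript length was treated: per kilobase of its longest model it was 2.66 times lower and dropped from 7th to 13th of the 33. The ratio of Gclm to Gclc was then 2.98. Under the same scaling Prdx1 was 1.83 times lower, Prdx6 1.76 times and Gss 1.56 times. This scaling also raised genes with a single model, such as Gclc, whose TPM was 0.835 times its value on that scale. The falls given here, and that of Glrx2 below, include this shift of the whole scale. For Gss the longest model is a retained-intron model that held 0.91% of the TPM of Gss. On that scale Gss, at 35.78, was below Gclc, at 45.85, whereas in TPM Gss was above Gclc. Gss, which adds glycine in the last step, had 55.8 and 55.5 TPM. Gsr, which regenerates reduced glutathione with NADPH, had 75.1 and 76.7 TPM.

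In the thioredoxin system the 2 thioredoxins were each above the reductase of the same compartment. Txn1, the cytosolic thioredoxin at chr4:57943373-57956411, had 250.5 and 240.9 TPM, and the mitochondrial Txn2 had 216 and 207 TPM. Their reductases were close to each other, with 93.8 and 93.2 TPM for the mitochondrial Txnrd2 and 85.3 and 82.6 TPM for the cytosolic Txnrd1. Per kilobase of the longest model the order of these reductases turned, with 86.5 for Txnrd2 and 100.6 for Txnrd1. Txn1 was 2.93 ± 0.0131 times as high as Txnrd1, and Txn2 was 2.26 ± 0.0594 times as high as Txnrd2. Txnrd3, known from the testis, had 5.56 and 5.32 TPM and was 15.4 ± 0.124 times lower than Txnrd1.

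Glutaredoxins use glutathione to reduce disulfides between proteins and glutathione, and some of them carry iron-sulfur clusters. Glrx3, an iron-sulfur carrier of the cytosol, led the group with 115 and 116 TPM. Glrx2, found mainly in mitochondria, had 72.0 and 69.7 TPM. Glrx, the classical cytosolic form, was the lowest with 19.9 and 18.6 TPM. Per kilobase of its longest model Glrx2 was 5.00 times lower and moved from 19th to 30th of the 33, so its place above Glrx depended on that scaling. That longest model, Glrx2-211, is a retained-intron model of 3905 bases that held 0.655% of the TPM of Glrx2. The leading model, Glrx2-202, has 580 bases. Srxn1, sulfiredoxin, which repairs overoxidized peroxiredoxins, had 23.7 and 19.9 TPM.

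The NRF2 axis was expressed at moderate levels. Nfe2l2, which encodes the transcription factor NRF2, had 46.2 and 45.0 TPM. Keap1, the adaptor that targets NRF2 for degradation, had 36.1 and 34.3 TPM, which put Nfe2l2 1.298 ± 0.0237 times as high. Nqo1, a quinone reductase and a classical NRF2 target, had 14.4 and 14.9 TPM. None of the 3 reached 100 TPM. Both oxidative dehydrogenases of the pentose phosphate pathway were below that level too, with 79.5 and 76.8 TPM for Pgd and 52.4 and 48.8 TPM for G6pdx, the rate-limiting enzyme of that pathway.

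**Figure D2:**
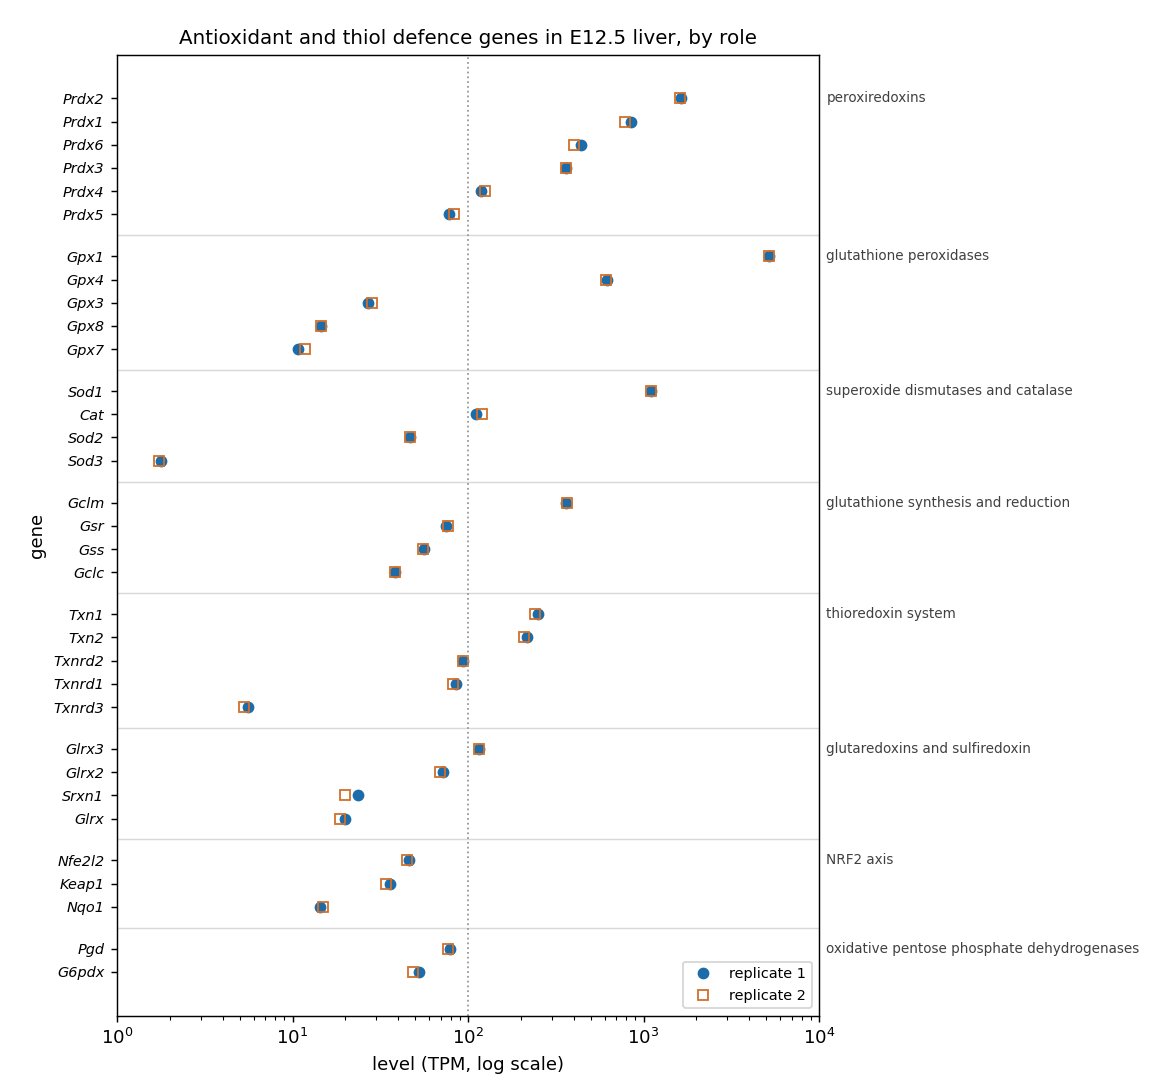
Level of each of the 33 genes (TPM, log scale) in replicate 1 (filled circles) and replicate 2 (open squares), grouped by role, with a dotted line at 100 TPM. The genes range from Sod3 at 1.78 and 1.74 TPM to Gpx1 at 5214 and 5184 TPM, and the symbols of the libraries overlap for most genes.

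The order of the 33 levels was nearly the same in both pools. Of the 32 pairs of neighbours in the order, 26 kept non-overlapping values over the libraries and 6 overlapped. The overlapping pairs were Gclm with Prdx3, Prdx4 with Cat, Cat with Glrx3, Txnrd1 with Prdx5, Prdx5 with Pgd, and Nqo1 with Gpx8.

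The pools differed little in these genes. The coefficient of variation over the libraries was under 5% for 27 of the 33 genes, and the median absolute log2 ratio was 0.048, beside 0.085 over the 13017 genes whose expected count averaged 50 or more. Only Srxn1 was at least 1.1-fold higher in replicate 1, against 15.9% of those 13017 genes, and only Gpx7 was at least 1.1-fold lower, against 16.4%. Gpx7 no longer passed that limit with a pseudocount of 1 or with TMM or DESeq2 scaling, and Srxn1 passed it under each. By any amount, 23 of the 33 genes (69.7%) were higher in replicate 1 and 10 were lower, against 52.1% of those genes higher. The median log2 ratio was 0.009 for the 33 genes and 0.006 for all.

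Exact 95% intervals from the counts, which cover counting error only, excluded a fold of 1 for 11 of the genes, 9 of them higher and 2 lower in replicate 1. Over 13016 genes the interval lay above 1 for 16.3% and below 1 for 14.6%. Srxn1 was 1.19-fold higher (1.11 to 1.27). Prdx6 was 1.09-fold higher (1.07 to 1.12) and Prdx1 was 1.08-fold higher (1.060 to 1.098). Within the peroxiredoxins the directions were mixed: Prdx2 was 1.02-fold (1.01 to 1.04), Prdx5 was 0.939-fold (0.888 to 0.994), and the intervals of Prdx3 and Prdx4 included 1. Cat was 0.922-fold (0.895 to 0.9501), and the interval of Gpx7 at 0.905-fold (0.785 to 1.04) included 1. Each pool is 1 library, so a difference between them has no replicate check.

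**Figure D3:**
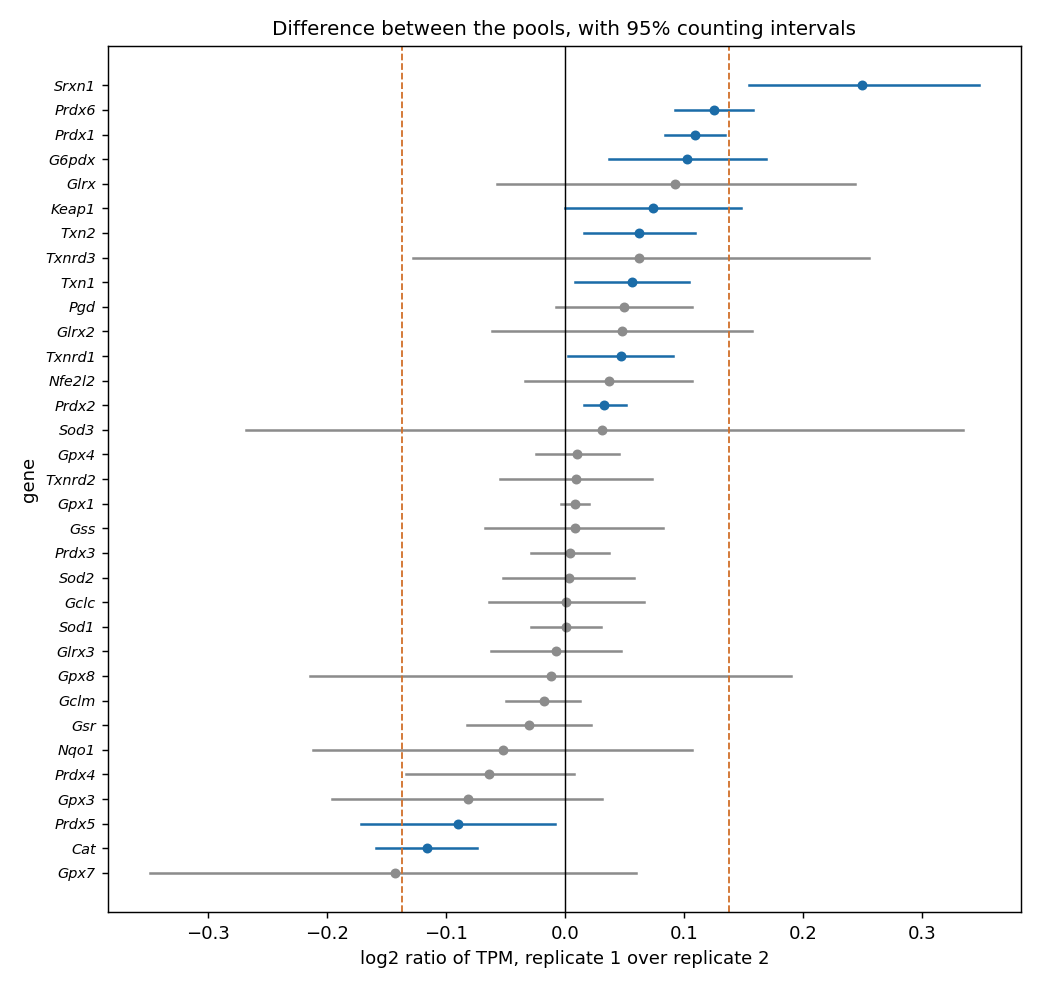
Log2 ratio of TPM, replicate 1 over replicate 2, for each of the 33 genes (points) with exact 95% intervals from the counts (lines), blue where the interval excludes a fold of 1 and grey where it includes it. The dashed lines mark 1.1-fold in each direction, and Srxn1 and Gpx7 are the genes past them.

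The zero point of these ratios mattered for their direction. Scaling on the spike-in RNAs instead of on total TPM moved the median log2 ratio of all 13017 genes by 0.116, and then 31 of the 33 genes were higher in replicate 1, against 80.7% of all. Prdx4, Prdx5, Gpx3, Gpx8, Gsr, Gclm, Glrx3 and Nqo1 changed from lower to higher under it. Of these, only Prdx5 had a counting interval that excluded a fold of 1. Cell type markers also differed between the pools in TPM. All 4 granulocyte markers were lower in replicate 1, 3 of them by at least 1.1-fold, with summed levels of 543 and 629 TPM. All 4 megakaryocyte markers were higher, 1 of them by at least 1.1-fold, with 821 and 718 TPM. Of 5 endothelial markers, 3 were at least 1.1-fold higher and 1 lower, with summed levels of 166 and 149 TPM. Markers of neighbouring organs summed to 28.7 and 32.3 TPM, and Tnnt2 and Myog were the pair at least 1.1-fold lower. Mesenchymal markers summed to 355 and 366 TPM, with 1 of 5 at least 1.1-fold higher and 2 lower. Macrophage markers summed to 200.5 and 204.7 TPM, with 1 of 6 at least 1.1-fold higher. No erythroid or hepatoblast marker differed by 1.1-fold. Over the 13017 genes, 15.9% were at least 1.1-fold higher in TPM and 16.4% lower. The part of these cell types in the differences of the 33 genes was not tested.

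The authors' own measure of uncertainty in assigning reads was small for these genes. The deposited posterior SD of the count was 0 in both libraries for 22 of the 33 genes and at most 0.561% of the count for the rest. Processed pseudogenes with at least 95% identity to the coding sequence over at least 200 bases were found in the tables for 5 of the genes, and these 6 copies held at most 1.09% of the count of their parent, the value for Glrx3. A further pair of Gpx4 copies, 1 of them Gpx4-ps2 with 99.6% identity over 552 bases, had no entry among the deposited genes. Reads from them could not be counted apart from Gpx4, and the posterior SD of Gpx4 does not cover this. The labels give no strandedness, so reads from exons shared with a gene on the other strand cannot be told apart. Among these are Prdx2 with Junb and Rnaseh2a, Prdx5 with Trmt112, G6pdx with Ikbkg, Gss with Acss2, Gssos1 and Gssos2, Gclm with Gm17494 and Keap1 with Gm16754.

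The deposited transcript tables split the genes into 132 transcript models. A single model was listed for 11 genes and several for 22. Over the 22, the median share of TPM on protein-coding models was 98.3%, beside 92.6% over the 8625 detected protein-coding genes with several models, and 5 of the 22 had a protein-coding share under 90%, against 44.6% of those genes. In 8 of the 22 the leading model held under 60% of the TPM, as in 36.4% of the 8625 genes. None of the 22 changed its leading model between the pools, against 8.06% of the 8625. These shares are estimates from short reads that models often share.

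Prdx6 was the exception among the 33 in having a leading model that is not annotated as protein-coding. Prdx6-208, marked as a target of nonsense-mediated decay, held 46.6% and 47.6% of the gene's TPM. The protein-coding models held 18.7% ± 0.264 together, led by Prdx6-202 with 14.7% ± 0.365. By TPM, 3.21% of the 8625 genes had a protein-coding share under 25%. By expected counts the protein-coding models held 31.8% of Prdx6, above that limit, so the size of the share depends on the measure. Prdx6-208 shared most of its sequence with Prdx6-202: 97.6% of its stretches of 31 bases were also in Prdx6-202, so reads from either are hard to assign. It held 70.9% of the coding stretches of Prdx6-202, and the window with the active cysteine printed above was not in it.

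Gpx1 was divided almost evenly. Gpx1-204, a short model of 653 bases, held 50.6% and 51.2% of the TPM, and Gpx1-201 held 48.3% ± 0.398. By expected counts, which do not correct for length, the longer Gpx1-201 led with 62.3% and 61.7%. The printed window with the TGA occurs in both models, but the annotated coding sequence of Gpx1-204 has 145 codons and no TGA in frame. In Gpx4 the short model Gpx4-207 held 66.0% ± 0.688 and Gpx4-202 held 33.3% ± 0.442. Gpx4-202 has 197 codons with the TGA at codon 73, and Gpx4-201, with 253 codons and the TGA at codon 129, held 0.371% ± 0.0141. Gpx4 is known to make mitochondrial, cytosolic and nuclear forms that differ at their start.

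Other divided genes were Gclm, Keap1, Gss, Txnrd2, Prdx2 and Glrx2. Gclm-206, a model of 1002 bases, held 45.4% and 42.0% of Gclm, whereas Gclm-201, of 4841 bases, held 18.1% ± 1.06 of its TPM and 58.7% and 56.8% of its counts. Keap1-205 held 45.9% ± 1.85, and all 4 protein-coding models of Keap1 together held 94.1% ± 0.992. Prdx2-208 held 58.9% ± 1.18, and retained-intron models held 17.4% ± 0.605 of the TPM of Prdx2 and 10.3% of its expected counts. Txnrd2-203, which carries the TGA at its end, held 58.6% ± 3.53, and Txnrd2-202, annotated for nonsense-mediated decay, held 11.2% ± 1.72. Gss-201 held 52.0% ± 2.94 and Glrx2-202 held 59.6% ± 1.69.

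**Figure D4:**
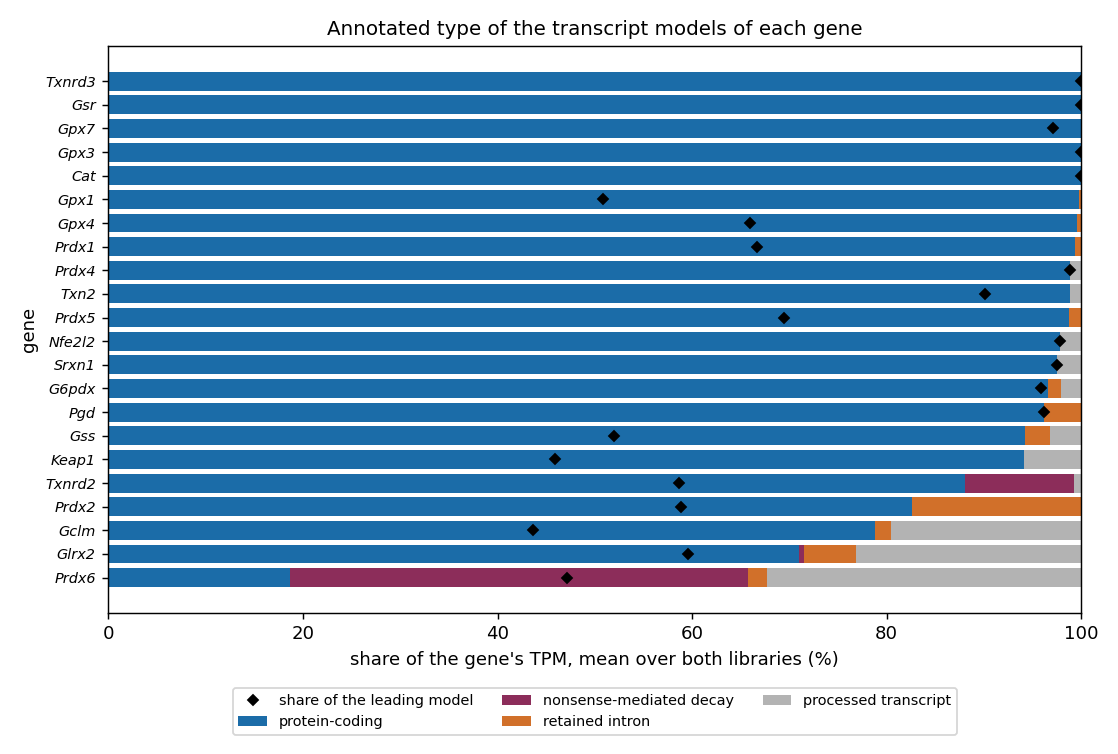
Share of each gene's TPM (mean over both libraries, percent) by annotated type of transcript model, for the 22 genes with several models, with a diamond at the share of the leading model. Prdx6 is the lowest in protein-coding share, at 18.7%, and its leading model is of the nonsense-mediated decay type.

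The 6 selenoprotein genes among the 33 were compared with the other genes that M21 annotates with a selenocysteine, 24 in all. Of these 24, 19 were detected and 7 were at or above 100 TPM. The members held 81.3% ± 0.0146 of the summed selenoprotein TPM, and Gpx1 alone held 70.1% ± 0.00102. These shares count all TPM of each gene, including models without an annotated selenocysteine. In Gpx1 only Gpx1-201, with 48.3% of the gene's TPM, is annotated with it. The next after Gpx1 and Gpx4 were Selenow with 387 and 403 TPM and Selenof with 273 and 264 TPM. Selenop, the plasma selenium carrier made by liver, had 230 and 216 TPM and is annotated with 10 selenocysteine codons. Gpx2, the intestinal peroxidase, was near the detection floor with 0.1 TPM in replicate 1 and listed at 0 in replicate 2. All 8 genes for making or inserting selenocysteine were detected, from Sepsecs at 8.82 and 9.82 TPM to Sephs2, itself a selenoprotein, at 132 TPM in both.

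**Figure D5:**
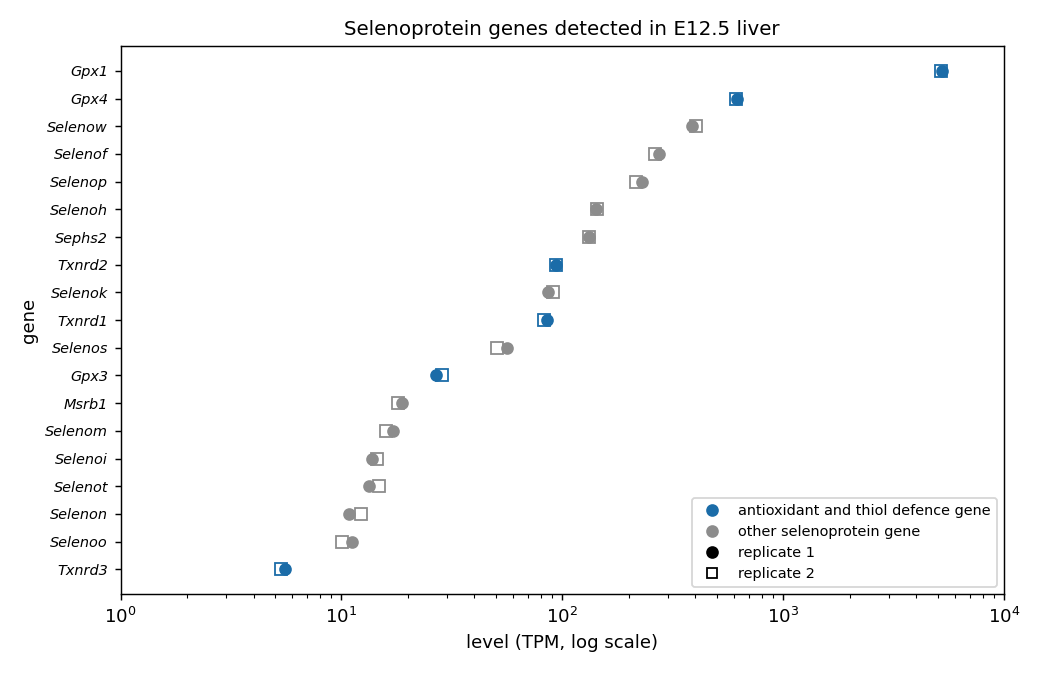
Level (TPM, log scale) of the 19 detected selenoprotein genes in replicate 1 (circles) and replicate 2 (squares), with the 6 antioxidant and thiol defence genes in blue and the others in grey. Gpx1 is the highest at 5214 and 5184 TPM and Txnrd3 the lowest at 5.56 and 5.32 TPM.

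NRF2 with a small MAF protein binds the antioxidant response element, whose core is TGACNNNGC, and the related sequence TGAGTCA is the site of AP-1 and of NF-E2 type factors. Both were searched on both strands from 250 bases before to 50 after the start in RefSeq promoters (GRCm38.p6), in which 29 of the 33 genes had an entry and Gclc, Prdx6, Sod3 and Gsr were not matched. TGACNNNGC was in 8 of the 29, or 27.6%, against 14.0% of 27025 genes. TGAGTCA was in 3 of the 29, or 10.3%, against 5.95% of genes. Sites are printed for the pathway's own regulator and for 3 classical NRF2 targets chosen among the genes with a match. Sites of the gene that differed most between the pools are printed too. Each has 10 bases on each side and the motif in capitals, on the strand that carries it.
Nfe2l2: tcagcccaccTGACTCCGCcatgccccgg
Gclm: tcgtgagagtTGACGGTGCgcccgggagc
Txnrd1: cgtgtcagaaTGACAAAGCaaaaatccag
Prdx1: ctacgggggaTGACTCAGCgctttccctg
Srxn1: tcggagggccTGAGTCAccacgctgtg
Srxn1, the other site: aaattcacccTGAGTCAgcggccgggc
The site of Nfe2l2 lies 240 bases before the start (chr2:75704885-75704913), that of Gclm 134 (chr3:122245413-122245441), that of Txnrd1 92 (chr10:82859104-82859132) and that of Prdx1 133 (chr4:116685456-116685484). Those of Srxn1 lie 102 and 45 bases before the start, at chr2:152105412-152105438 and chr2:152105469-152105495. In Prdx1 a TGAGTCA overlaps the printed site on the other strand, and a further TGAGTCA lies 237 bases before the start. The other genes with TGACNNNGC were Pgd, Sod1, G6pdx and Srxn1, and Glrx was the other gene with TGAGTCA. Nqo1, itself a classical NRF2 target, was among the 29 matched genes and had neither motif in the stretch searched. A match describes these letters only, and no binding was measured here.

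Genes around the 33 were also expressed. Of 10 NRF2 partners, regulators and repressors, 9 were detected and 3 were at or above 100 TPM. Nfe2, the erythroid relative of NRF2, had 146 and 145 TPM, above the 46.2 and 45.0 TPM of Nfe2l2. The small MAF genes Mafg and Mafk, partners of both, had 50.57 and 46.15 TPM and 41.5 and 42.5 TPM. Bach1, a heme-sensitive repressor at the same sites, had 7.64 and 9.14 TPM, and Bach2 was the partner that missed detection, with 1.52 and 0.97 TPM.

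Of 10 other NRF2 targets, 9 were detected and 4 were at or above 100 TPM. Gstp1, a glutathione transferase, led with 576 and 533 TPM, followed by Taldo1, a transaldolase of the pentose phosphate pathway, with 435 and 424 TPM. Hmox1, heme oxygenase, had 73.7 and 79.1 TPM. Slc7a11, the cystine importer that feeds glutathione synthesis in many cells, was the target not detected, with 0.17 and 0.31 TPM. All 7 other genes of NADPH supply were detected, led by Idh2 with 138 and 139 TPM and Pgls with 126 and 120 TPM. All 10 thioredoxin partners and sestrins were detected, led by Txnl1 with 125.2 and 121.5 TPM. Glrx5, the mitochondrial glutaredoxin of iron-sulfur cluster assembly, had 737 and 747 TPM, above all 3 glutaredoxins among the 33, and Gpx5 and Gpx6 were listed at 0.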

How the data were processed

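Both libraries were made from separate pools of livers, per the labels, so spread between them is spread between pools. The authors deposited gene and transcript tables on assembly mm10 with GENCODE M4, per the file headers. No source used here gives the aligner or the quantifier. The deposited expected counts are estimated reads per gene, and the deposited TPM and FPKM are scaled by effective length and depth, with spike-ins included. The authors' percent of gene TPM per transcript was recomputed from transcript TPM, and the authors' posterior SD of the count, a score, was used as deposited. Names, types and coordinates came from GENCODE M21, which held 131 of the 132 models, 61 in the same version. Ratios were log2 of TPM plus 0.1, which understates low genes, with exact Clopper-Pearson intervals from rounded counts. A floor of 3 reads over 1 kb is 0.0953 TPM in replicate 1 and 0.103 TPM in replicate 2. PCR reads are not independent molecules, so both cover counting error only. The interval was checked only on simulated counts that carried counting error alone, so that check cannot speak to other sources of spread. TMM and size factors came from edgeR 4.0.16 and DESeq2 1.42.0 on rounded counts.

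The members, lists and limits were chosen with earlier results of these data known. The text turns on the highest and lowest member of each role, the 5 largest ratios between the pools, and members whose leading transcript holds under 60% of TPM. Alternatives were other limits, scalings and single libraries.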

Additional observations from a re-analysis of the deposited data

How the results depend on the processing

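No paired analysis was possible because there is 1 group. The share of TPM held by the 33 genes was 1.29% over mouse genes only, 1.77% without globins and 1.11% per kilobase of the longest model (chosen after seeing the data), and 1.21% to 1.23% in single libraries. All 33 were detected under every limit and scaling tried except a limit of 2 TPM, which left 32, and the number at or above 100 TPM was 13 in each single library. A limit of 50 TPM gave 20 genes. With 13 as reported, a limit of 200 TPM gave 10, FPKM gave 10 and removing globins gave 19. Spike-in centring gave 15 genes at least 1.1-fold higher in replicate 1, 0 lower and a median log2 ratio of 0.125, where 45.0% of all 13017 genes were at least 1.1-fold higher and 7.25% lower; under it the log2 ratio of Prdx5 became 0.026. With a pseudocount of 1, TMM or DESeq2 size factors, 0 genes were at least 1.1-fold lower and Srxn1 stayed the 1 that was higher. With TMM the log2 ratio of Gclm changed sign from -0.018 to 0.056, and that of Gss from 0.008 to -0.013. DESeq2 size factors changed both signs in the same way. The counting intervals of Gclm and Gss included a fold of 1. Low counts limit Sod3, Gpx7 and Gpx8 most.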
